A study of Mus musculus with 6 samples.

Results

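The mitochondrial protein import machinery is the set of translocases, chaperones and peptidases that brings proteins made in the cytosol into mitochondria. Its genes were taken from the deposited gene table by name, as every symbol made of Tomm or Timm and a number, together with Timmdc1, Samm50, Mtx1, Mtx2, Dnajc19, Pam16, Grpel1, Hspa9, Romo1, Chchd4, Gfer, Pmpca and Pmpcb. This gave 38 of the 24182 genes in the table, and 166 of the 73900 transcripts in the transcript table. The rule uses gene names only, and the set was proposed with earlier results of these data known. RNA was measured by bulk sequencing in mouse Th17 cells, the CD4 helper T cells that make interleukin 17, in 3 libraries labelled Sirt2 KO, made with CRISPR/Cas9, and 3 control libraries labelled Sirt2 WT. Both groups were activated for 72 hours through the T cell receptor and its costimulator, with antibodies to CD3 at 0.5 μg/mL and to CD28 at 1 μg/mL, and both carry the treatment label untreated. Sirt2 encodes a NAD-dependent deacetylase. The guide RNA, the strain and age of the mice, and whether the KO cells were a pool or 1 clone are details that the sources used here do not give. Nor do the labels say whether replicates were separate cultures or animals, and the p-values therefore cover only the spread among the 6 libraries, which may be technical.

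Nearly all mitochondrial proteins are encoded in the nucleus. The TOM complex of the outer membrane recognises them and passes them through the Tomm40 channel. Proteins with an N-terminal presequence go on through TIM23 in the inner membrane, are pulled in by a motor built on the chaperone Hspa9, and lose the presequence to the peptidase formed by Pmpca and Pmpcb. Carrier proteins are escorted by small TIM chaperones to TIM22, barrel proteins of the outer membrane are inserted by Samm50, and small cysteine-rich proteins are folded by the Chchd4 and Gfer disulfide relay. Activated T cells enlarge their mitochondria, which requires import of new proteins.

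Values are FPKM, read fragments per kilobase of a transcript relative to the library total, as the authors deposited them, and the read depth behind them is unknown. Summed gene FPKM was 303772 to 321734 per library. Markers of the labelled cell type were present, with Cd4 at 89.4 to 102 FPKM in KO cells and 91.8 to 93.7 FPKM in WT, and Il17f at 202 to 350 FPKM in KO cells and 329 to 357 FPKM in WT. Sirt2 itself had 11.2, 13.5 and 10.9 FPKM in the KO libraries, against 20.7, 19.9 and 21.9 FPKM in the WT libraries, and fell by 0.76 on the log2(FPKM + 1) scale (SE 0.0920, with a limma adjusted p of 0.0429; the exact two-sided permutation p was 0.1, the smallest that 3 against 3 libraries allow). It missed the threshold in 11 of 14 alternative settings, with the same direction in all 14. Of the libraries, KO replicate 3 stood apart from its group. Across genes, which are not independent replicates, its log2 values correlated at 0.990 with each WT library, but at 0.981 with KO replicate 1 and 0.979 with KO replicate 2. Results are therefore given with and without it. Markers of other cells also moved with genotype. The summed FPKM of 8 myeloid markers was 39.3 to 40.8 in KO and 30.1 to 31.4 in WT, with 5 of the 8 higher in every KO library, and Adgre1 and Itgam under 0.2 FPKM in all libraries. Ctss made up most of these sums and overlapped, at 26.3 to 31.4 FPKM in KO cells and 26.6 to 28.4 FPKM in WT. Fcgr3 and Adgre1 overlapped as well, while Lyz2 had 4.24 to 9.44 FPKM in KO cells and 0.782 to 1.38 FPKM in WT. For the 5 B cell markers the sums were 22.7 to 27.4 in KO and 19.1 to 19.7 in WT, with 2 of 5 higher in every KO library and Ms4a1 listed at 0 in 4 of the 6 libraries. Ighm made up most of these sums, at 21.3 to 25.3 FPKM in KO cells and 18.3 to 18.6 FPKM in WT, and Cd79a and Cd79b overlapped. For the 5 markers of CD8 T and NK cells found in the table they were 20.1 to 25.4 in KO and 7.31 to 8.76 in WT, with 3 of 5 higher in every KO library and Cd8a, one of those 3, under 0.5 FPKM throughout. Gzmb carried most of the KO sums, at 11.6 to 19.2 FPKM in KO cells and 2.66 to 2.97 FPKM in WT, and Nkg7 had 2.02 to 2.87 FPKM in KO cells and 0.603 to 0.944 FPKM in WT. Cd8b1 had 3.24, 3.18 and 5.92 FPKM in KO, against 3.75, 4.89 and 3.84 FPKM in WT, with KO replicates 1 and 2 below every WT library, and Prf1 overlapped between genotypes. Of the 10873 genes at 1 FPKM or more in at least 3 libraries, 4.28 percent were higher in every KO library. The part of these cells in the results was not tested, and in bulk RNA a change in the number of cells of a type and a change in RNA per cell cannot be told apart.

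All but 2 of the import genes were expressed. Of the 38 genes, 36 reached 1 FPKM in at least 3 libraries and entered the comparison. Timm8a2, a second copy of a small TIM chaperone gene, stayed at or below 0.122 FPKM, and the antisense gene Tomm6os at or below 0.411 FPKM, in every library. Levels of different genes are set side by side here as FPKM summed over each gene's transcripts, which is per length of the transcripts themselves. The gene values in the deposited table matched the length-weighted transcript sum divided by the length of all annotated exons together, within 2 percent, for 36 of the 36 genes. Rarely used long exons therefore lower a gene value. Dnajc19, a J protein gene of the import motor, had a gene value of 4.34 FPKM in KO cells and 3.85 FPKM in WT but a transcript sum of 24.6 FPKM in KO cells and 21.2 FPKM in WT.

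Hspa9, the Hsp70 of the matrix, had the highest level, a transcript sum of 429 FPKM in KO cells and 435 FPKM in WT. Tomm5, a small TOM subunit, came next at 143 FPKM in KO cells and 131 FPKM in WT, followed by the TIM23 channel gene Timm23 at 114 FPKM in both groups and by Tomm40 at 108 FPKM in KO cells and 96.6 FPKM in WT. Across the KO libraries the values of these 3 genes overlapped, while across the WT libraries their ranges were apart. The lowest of the 36 were Timm22, the channel of the carrier pathway, at 10.9 FPKM in KO cells and 9.70 FPKM in WT, and Timm17b, a TIM23 subunit, at 10.9 FPKM in KO cells and 9.40 FPKM in WT. The TIM22 channel gene was thus far below the TIM23 channel gene in every library.

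**Figure D1:**
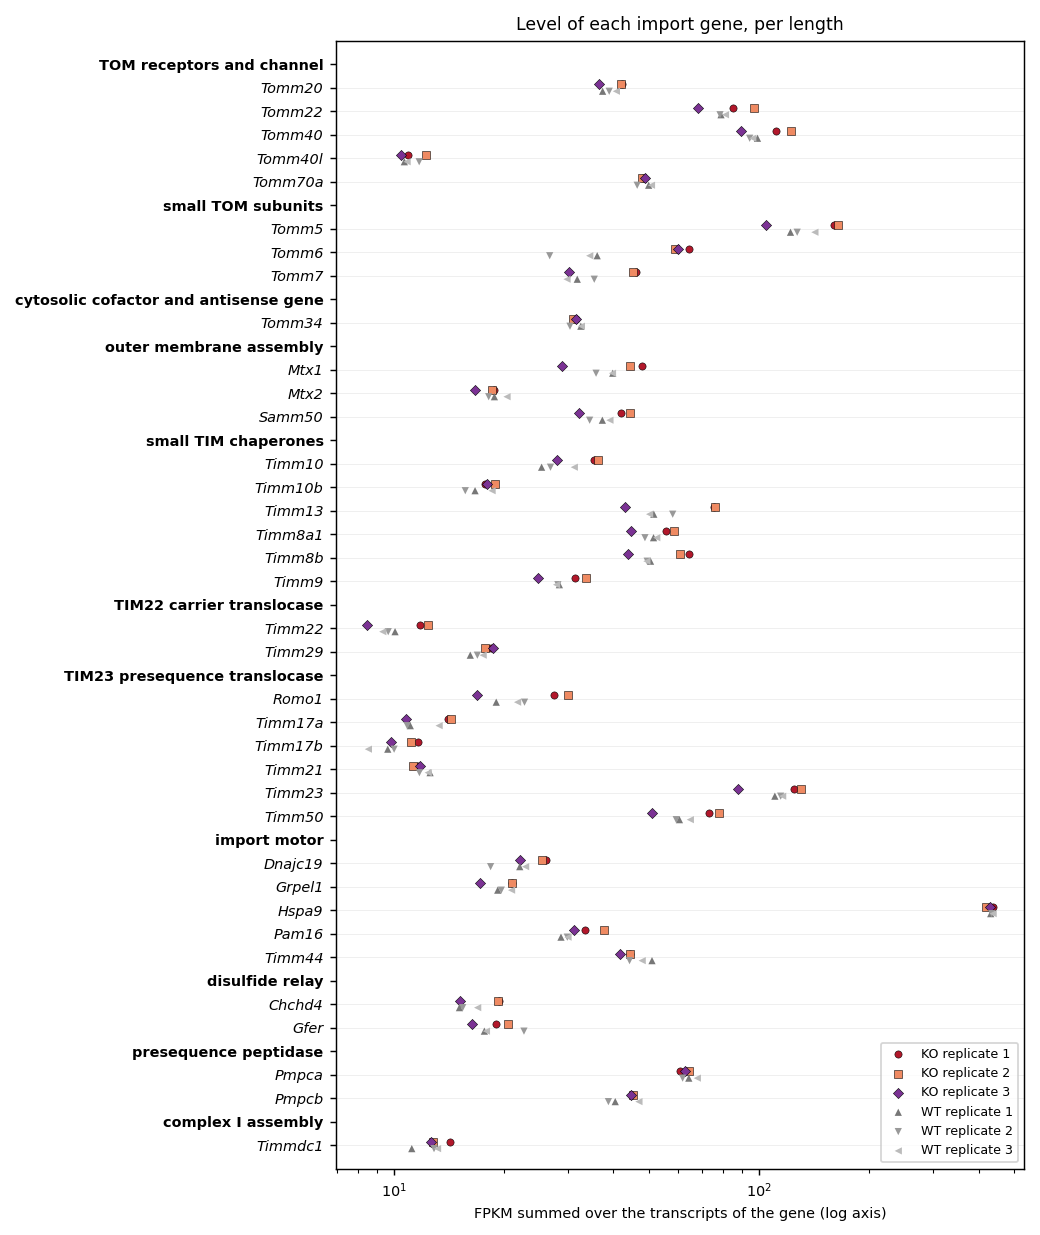
Level of each of the 36 expressed import genes in each library, as FPKM summed over the gene's transcripts on a log axis, grouped by role. Coloured symbols are the KO libraries and grey triangles the WT libraries. Hspa9 lies above all others, at 429 FPKM in KO cells and 435 FPKM in WT, and Timm22 and Timm17b are at the low end.

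With all 6 libraries, none of the 36 import genes passed the test, limma on log2(FPKM + 1) with p-values adjusted over all genes and a threshold of 0.05. Over all 10873 genes tested, 12 passed (0.11 percent). At an unadjusted p under 0.05 there were 2 import genes, Tomm6 and Timm17b. The median log2 fold change of KO over WT was 0.09 over the import genes and -0.03 over all genes tested, and 26 of the 36 import genes had a positive value, against 4491 of the 10873. This fold change understates that of low genes, since 1 FPKM is added to each value. The values of the KO libraries were all above those of the WT libraries for 4 of the 36 genes, Tomm6, Timm17b, Pam16 and Timm29 (4.28 percent of all genes tested), and all below for none (6.88 percent).

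Tomm6, a small subunit that steadies the TOM complex, had the smallest p of the set. It had 41.0, 35.8 and 37.4 FPKM in KO replicates 1 to 3, against 22.2, 15.7 and 19.5 FPKM in WT replicates 1 to 3. The groups were well separated, and KO replicate 3 lay with the other KO libraries. The means were 38.1 ± 2.69 FPKM in KO cells and 19.1 ± 3.26 FPKM in WT (SD, n = 3 each), a ratio of 1.99. The log2 fold change was 0.97 (SE 0.122) with a limma adjusted p of 0.0503, just outside the threshold. Over the alternatives this adjusted p ran between 0.0121 and 0.394, the lowest without KO replicate 3 and the highest without KO replicate 1, and it also passed with libraries scaled to a common median (adjusted p 0.0429). The authors' deposited table gives Tomm6 a q of 4.72e-09 while marking it as not significant.

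The gene lies on the minus strand at chr17:47686646-47688386 of GRCm38. Its coding sequence of 222 bases, in 2 coding exons spanning chr17:47687195-47688026, is the same in both of its coding transcripts. It is shown because another annotated gene carries the same bases, so that reads from it cannot be assigned to 1 gene. It was cut from the GENCODE M21 transcript sequences, and is in lower case, with the 10 bases on each side of the exon junction in capitals:
Tomm6: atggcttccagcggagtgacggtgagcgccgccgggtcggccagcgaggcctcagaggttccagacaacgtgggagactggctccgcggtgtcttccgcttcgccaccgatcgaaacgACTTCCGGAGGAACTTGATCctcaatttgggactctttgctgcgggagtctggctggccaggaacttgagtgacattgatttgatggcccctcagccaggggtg

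The other gene is Gm21981, whose only transcript in the table (ENSMUST00000143789) is annotated as a readthrough subject to nonsense-mediated decay, starts upstream on the same strand and ends in the 3 exon regions of Tomm6. Gm21981 had 9.72, 11.0 and 4.40 FPKM in KO, against 11.4, 13.9 and 11.5 FPKM in WT. All KO values were below all WT values, with KO replicate 3 the lowest. The log2 fold change of Gm21981 was -0.58 (limma adjusted p = 0.843). Within Tomm6, the separation lay in 1 of 3 transcripts. ENSMUST00000113302 (chr17:47686646-47688183) had 41.2, 25.5 and 31.8 FPKM in KO, against 13.7, 4.84 and 2.95 FPKM in WT. Each KO library was above each WT library, and its log2 fold change of 2.26 (SE 0.495) had a limma adjusted p of 0.532. The authors' deposited table gives this transcript a q of 0.00307 and marks it as significant. The second coding transcript, ENSMUST00000113301, had 19.6, 29.7 and 24.6 FPKM in KO, against 18.9, 19.3 and 29.0 FPKM in WT, and its groups overlapped. The retained-intron transcript ENSMUST00000143156 had 3.74, 3.52 and 3.72 FPKM in KO, against 3.57, 2.61 and 2.48 FPKM in WT, with overlap as well.

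None of the 749 exonic bases of ENSMUST00000113302 is outside every other annotated exon. Of them, 656 are shared with Gm21981, and the other 93 overlap Usp49 on the opposite strand. The antisense Tomm6os covers 219 of the 749. Gm21981 lies on the same strand as Tomm6, so strand would not separate the 656 shared bases. Other Tomm6 transcripts share 655 of the 749. The sources used here do not give whether the counting used strand, which bears on the 93 and on the overlap with Tomm6os. The value of this transcript, and the division of reads among the Tomm6 transcripts, are therefore uncertain. Multiplied by transcript length, so that amounts can be added, Tomm6 had 43.1 ± 3.04 FPKM × kilobases in KO and 21.7 ± 3.68 in WT (SD, n = 3 each). Tomm6 and Gm21981 together had 72.9, 70.5 and 54.3 FPKM × kilobases in KO, against 56.2, 55.6 and 53.3 in WT. On this sum, KO replicates 1 and 2 were high and KO replicate 3 lay within the WT range. The ratio of means was 1.20 and the exact two-sided permutation p was 0.3. Gm21981 made up 33.7 ± 10.5 percent of this sum in KO and 60.7 ± 6.59 percent in WT (exact permutation p = 0.1, the smallest possible).

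**Figure D2:**
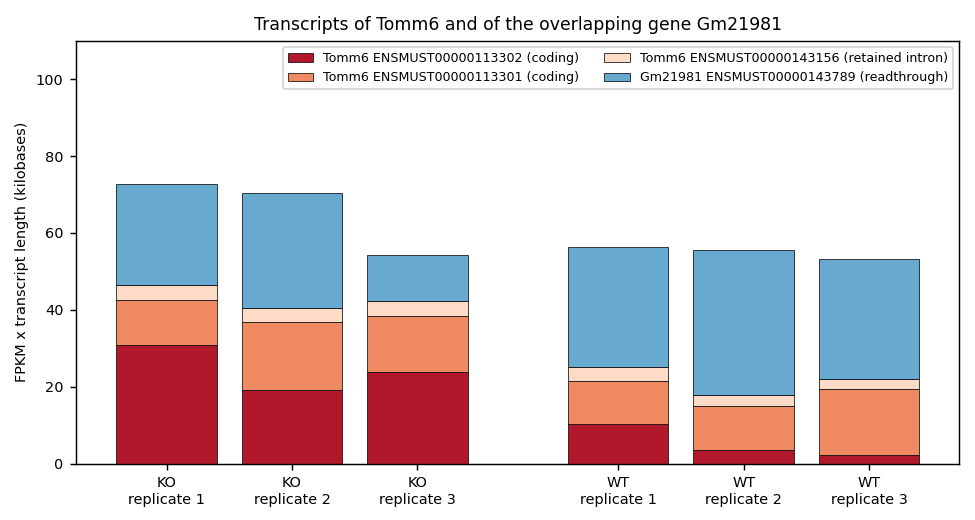
Transcripts of Tomm6 and of Gm21981 in each library, stacked, as FPKM times transcript length in kilobases, with the KO libraries on the left and the WT libraries on the right. The Tomm6 bars sum to 40.5 to 46.4 in KO and 17.8 to 25.2 in WT, while whole bars reach 54.3 to 72.9 in KO and 53.3 to 56.2 in WT.

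The remaining small TOM subunits, Tomm5 and Tomm7, which support assembly of the complex, differed among the KO libraries. Tomm7 had 46.1, 45.1 and 30.2 FPKM in KO, against 31.8, 35.4 and 29.8 FPKM in WT (log2 fold change 0.29, SE 0.159, limma adjusted p = 0.843). KO replicates 1 and 2 were above every WT library, and KO replicate 3 was among them. Tomm5 had 121, 121 and 76.5 FPKM in KO, against 90.0, 93.4 and 104 FPKM in WT, so that KO replicate 3 was below every WT library.

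This division of the KO libraries ran through much of the machinery. KO replicates 1 and 2 were both above all 3 WT libraries for 24 of the 36 genes, against 18.9 percent of all genes tested. KO replicate 3 was below all WT libraries for 23 of the 36, against 31.2 percent of all genes tested. Both held for 17 of the 36, against 9.16 percent, and genes with both are called split in what follows. Relative to the WT mean, the median log2 difference of the import genes was 0.15, 0.19 and -0.10 in KO replicates 1 to 3, and -0.02, -0.02 and 0.04 in WT replicates 1 to 3. Over all genes tested the same medians were -0.04, -0.03 and 0.01 in the KO libraries.

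**Figure D3:**
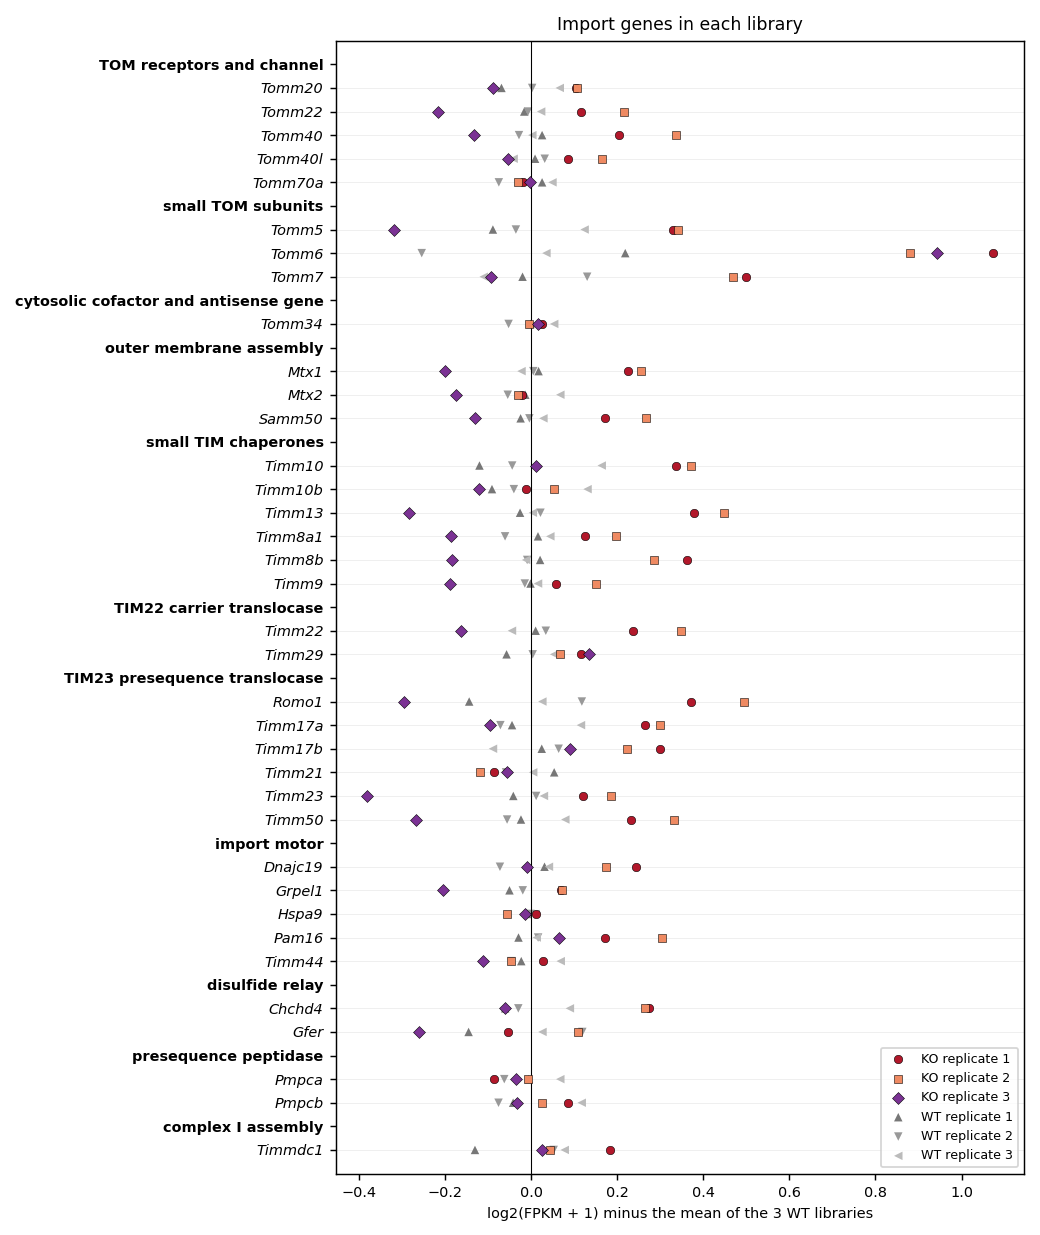
Difference of each import gene from the mean of the WT libraries, on the log2(FPKM + 1) scale, in each library, grouped by role. Coloured symbols are the KO libraries and grey triangles the WT libraries. KO replicates 1 and 2 lie right of the WT libraries in 24 of 36 genes, KO replicate 3 lies left of them in 23 of 36, and at Tomm6 all KO libraries lie to the right.

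Among the receptors and the channel of TOM, Tomm40 had 39.9, 43.8 and 31.4 FPKM in KO, against 35.1, 33.8 and 34.6 FPKM in WT. Tomm22, the central receptor, had 77.9, 83.5 and 61.6 FPKM in KO, against 71.0, 71.4 and 73.0 FPKM in WT. In both, KO replicates 1 and 2 were highest and KO replicate 3 lowest of the 6 libraries. Tomm20, the presequence receptor, had 41.7, 41.8 and 36.3 FPKM in KO, against 36.9, 38.8 and 40.6 FPKM in WT, with the same order. Tomm70a, the receptor for carrier proteins, had 29.5, 29.3 and 29.8 FPKM in KO, against 30.4, 28.3 and 31.0 FPKM in WT, and all its KO values lay inside the WT range. Tomm40l, a second channel gene, had the split at 7.97 to 9.43 FPKM in KO cells and 8.04 to 8.51 FPKM in WT. Tomm34, a cytosolic cofactor of Hsp70 and Hsp90, differed little among the 6 libraries, at 22.2 to 22.7 FPKM in KO cells and 21.5 to 23.2 FPKM in WT.

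In the assembly of outer membrane barrels, Samm50 had 25.5, 27.4 and 20.5 FPKM in KO, against 22.2, 22.5 and 23.0 FPKM in WT, with the same split. Its partner Mtx1 (metaxin) ran between 10.6 and 14.9 FPKM in KO cells and between 12.2 and 12.5 FPKM in WT, also split. Mtx2 had 13.1 to 14.6 FPKM in KO cells and 14.3 to 15.6 FPKM in WT, and only its KO replicate 3 was outside the WT range.

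The small TIM chaperones ferry hydrophobic proteins across the intermembrane space. Timm10 had 29.9, 30.7 and 23.7 FPKM in KO, against 21.5, 22.7 and 26.4 FPKM in WT (log2 fold change 0.24, SE 0.118, limma adjusted p = 0.843). KO replicates 1 and 2 were the highest, and KO replicate 3 was within the WT range. Its partner Timm9 had 5.96, 6.43 and 4.87 FPKM in KO, against 5.69, 5.63 and 5.77 FPKM in WT, a full split with a log2 fold change of 0.01. Timm13 and Timm8b, the latter a paralog of Timm8a1, showed a wide split. Timm13 had 55.0, 57.8 and 34.4 FPKM in KO, against 41.3, 42.8 and 42.2 FPKM in WT. Timm8b ran between 43.7 and 64.3 FPKM in KO cells and between 49.4 and 50.5 FPKM in WT. Timm8a1 was split at 44.6 to 58.6 FPKM in KO cells and 48.8 to 52.5 FPKM in WT, and Timm10b, which holds the chaperones to TIM22, overlapped at 5.18 to 5.97 FPKM in KO cells and 5.31 to 6.36 FPKM in WT.

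In the carrier translocase, Timm22 had 9.93, 10.8 and 7.28 FPKM in KO, against 8.34, 8.49 and 7.99 FPKM in WT, again split. Timm29, a TIM22 subunit, was one of the 4 genes without overlap, with 18.4, 17.8 and 18.7 FPKM in KO, against 16.2, 16.96 and 17.6 FPKM in WT. The log2 fold change of Timm29 was 0.11 (SE 0.0650, with a limma adjusted p of 0.847).

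In the presequence translocase, Timm23 had 81.3, 85.0 and 57.1 FPKM in KO, against 72.5, 75.2 and 76.2 FPKM in WT. Timm50, its receptor, had 40.4, 43.4 and 28.3 FPKM in KO, against 33.7, 32.9 and 36.3 FPKM in WT. Both were split, and for Timm23 the log2 fold change over all 6 libraries was -0.02. Timm17b, a channel subunit with Timm23, had 10.7, 10.1 and 9.11 FPKM in KO, against 8.65, 8.92 and 7.92 FPKM in WT. Every KO library was above every WT library, by a log2 fold change of 0.20 (SE 0.0847, with a limma adjusted p of 0.843). Its paralog Timm17a had 12.8, 13.2 and 9.76 FPKM in KO, against 10.2, 9.95 and 11.5 FPKM in WT, with KO replicate 3 lowest. Timm21, which links TOM to TIM23, had 7.38, 7.19 and 7.56 FPKM in KO, against 8.23, 7.54 and 7.92 FPKM in WT. It was the only one of the 36 whose KO replicates 1 and 2 were both below all WT libraries (31.2 percent of all genes tested). Romo1, a small subunit of the TIM23 complex also known for its part in redox signalling, ran between 12.5 and 22.4 FPKM in KO cells and between 14.0 and 16.98 FPKM in WT, split.

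In the import motor, no gene passed with or without KO replicate 3. Hspa9 had 309, 295 and 304 FPKM in KO, against 305, 307 and 309 FPKM in WT. The log2 fold change was -0.02, with a 95% interval of -0.15 to 0.11. Its exchange factor Grpel1 had 21.03, 21.1 and 17.2 FPKM in KO, against 19.3, 19.7 and 21.04 FPKM in WT, and KO replicate 3 was the lowest library. Pam16, which holds the motor's J proteins at the channel, had 8.31, 9.19 and 7.63 FPKM in KO, against 7.09, 7.35 and 7.33 FPKM in WT. The KO libraries were all higher, by a log2 fold change of 0.18 (SE 0.0835, with a limma adjusted p of 0.843). Dnajc19 had 4.74, 4.47 and 3.82 FPKM in KO, against 3.95, 3.61 and 3.99 FPKM in WT, with KO replicate 3 inside the WT range. Timm44, the scaffold that ties Hspa9 to the channel, overlapped at 25.2 to 27.8 FPKM in KO cells and 26.4 to 28.7 FPKM in WT.

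In the disulfide relay, the oxidoreductase Chchd4 had 12.9, 12.9 and 10.1 FPKM in KO, against 10.1, 10.3 and 11.3 FPKM in WT, with KO replicate 3 just below the lowest WT library. Gfer, which reoxidises Chchd4, had 13.4, 15.1 and 11.5 FPKM in KO, against 12.5, 15.2 and 14.2 FPKM in WT. Of the peptidase subunits, Pmpca had 43.7, 46.2 and 45.3 FPKM in KO, against 46.3, 44.4 and 48.7 FPKM in WT, and Pmpcb had 15.5, 14.8 and 14.2 FPKM in KO, against 14.1, 13.8 and 15.9 FPKM in WT. Both peptidase genes overlapped between genotypes with no split. Timmdc1, a complex I assembly factor named for its likeness to the TIM proteins, overlapped at 11.1 to 12.5 FPKM in KO cells and 9.89 to 11.6 FPKM in WT.

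KO replicate 3 was seen to stand apart in these same data. Leaving out any other single library gave 0 import genes that passed. When KO replicate 3 was left out, an alternative that leaves 2 KO libraries, 11 of the 36 genes rose and none fell. Rose and fell mean passing the threshold with a positive or a negative log2 fold change. Of all genes tested, 1088 passed in this fit, against 12 with all 6 libraries. The background in this fit was 4 percent of 10726 genes higher and 6.14 percent lower. The 11 were Tomm6, Tomm7, Tomm5, Tomm40, Mtx1, Timm10, Timm13, Timm8b, Timm22, Timm50 and Romo1. By role they were 3 of 3 small TOM subunits, 1 of 5 TOM receptor and channel genes, 1 of 3 outer membrane assembly genes, 3 of 6 small TIM chaperones tested, 1 of 2 TIM22 genes and 2 of 6 TIM23 genes. They were 0 of 5 import motor, 0 of 2 disulfide relay and 0 of 2 peptidase genes, and neither Tomm34 nor Timmdc1 was among them. Differences between roles were not tested. The log2 fold changes without KO replicate 3 were 0.98 for Tomm6 (SE 0.133), 0.48 for Tomm7 (SE 0.0750), 0.43 for Romo1 and 0.41 for Timm13, with limma adjusted p of 0.0121, 0.0174, 0.0299 and 0.00905. Just outside the threshold there were Chchd4 (limma adjusted p 0.0505), Samm50 (0.0517), Timm17a (0.0558), Timm17b (0.0614) and the motor gene Pam16 (0.0692). The log2 fold change of Pam16 was 0.24, as was that of Mtx1, which passed. With all 6 libraries the same 11 genes except Tomm6 had adjusted p of 0.843 or more.

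**Figure D4:**
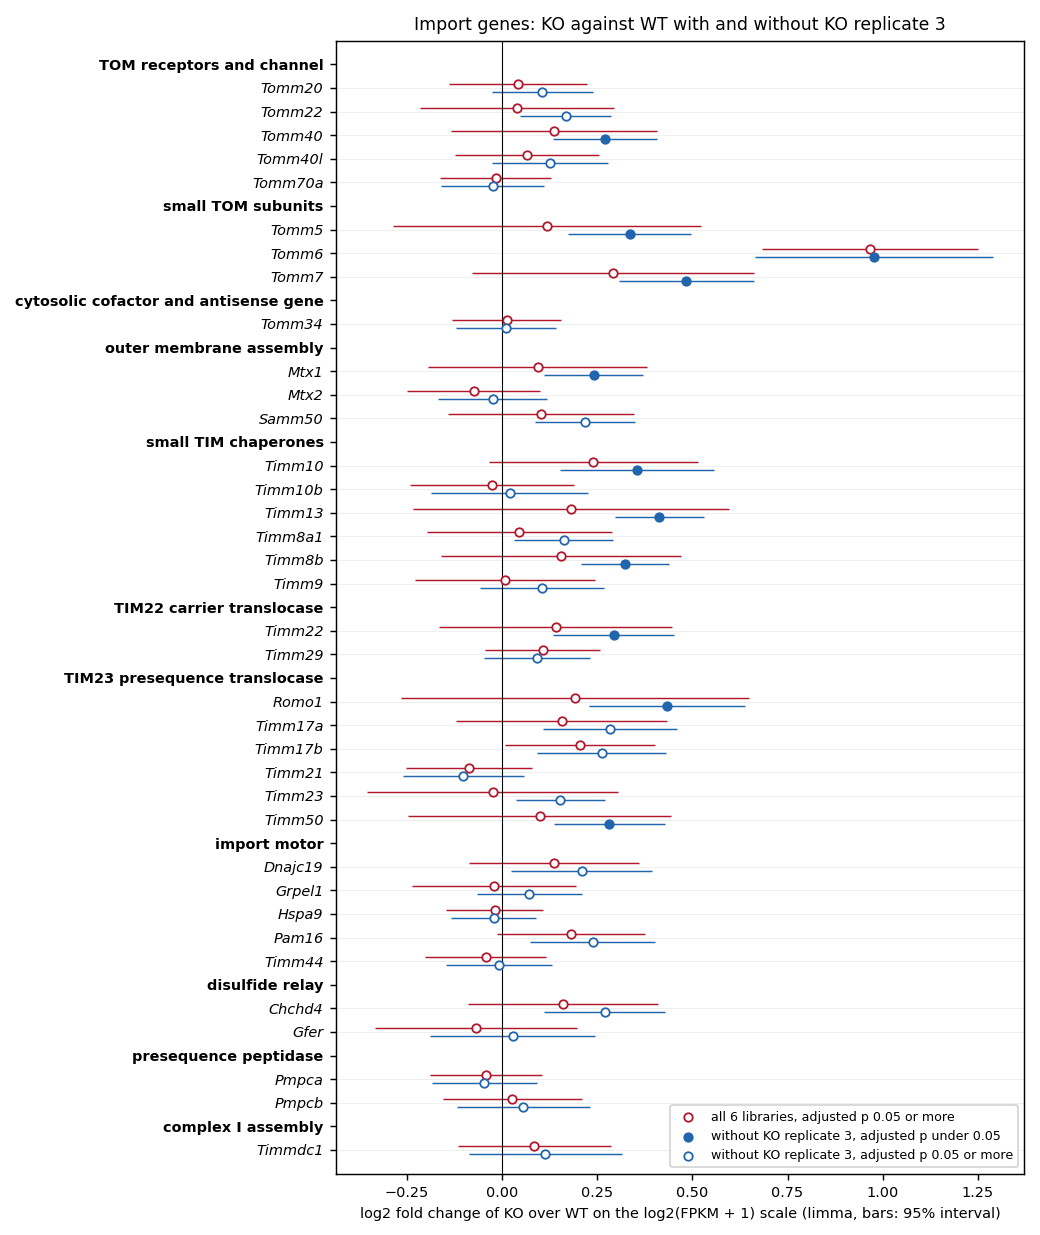
Log2 fold change of KO over WT for each import gene, from limma, with all 6 libraries (red, upper symbol) and without KO replicate 3 (blue, lower symbol); bars are 95% intervals and filled symbols have an adjusted p under 0.05. No red symbol is filled, and 11 of 36 blue ones are.

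Differences from the WT mean varied with transcript length. Over the 36 genes, the difference from the WT mean had a Spearman correlation with transcript length of -0.50, -0.51 and 0.24 in KO replicates 1 to 3, a description across genes that share each library. Over all genes tested it was -0.33, -0.47 and 0.23. The WT libraries varied with length too, at 0.03, -0.13 and 0.13 in WT replicates 1 to 3 over the 36 genes. Over all genes tested the WT values were 0.25, 0.0065 and -0.24. The 8 import genes with transcripts under 1000 bases had median differences of 0.33, 0.32 and -0.10 in KO replicates 1 to 3, and the 16 of 2000 bases or more had 0.08, 0.07 and -0.06. All genes under 1000 bases had medians of 0.09, 0.14 and -0.03. Whether transcript length accounts for the split was not tested. A further alternative, added after the data were seen, left out KO replicate 3 and removed a trend in length. The length there was that of all annotated exons of a gene together, not the transcript length used above. In that fit 12 of the 36 genes rose and none fell, against 4.02 percent of all genes higher and 3.54 percent lower. With the same kind of trend removed and all 6 libraries kept, 0 passed, and 2 had an unadjusted p under 0.05.

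**Figure D5:**
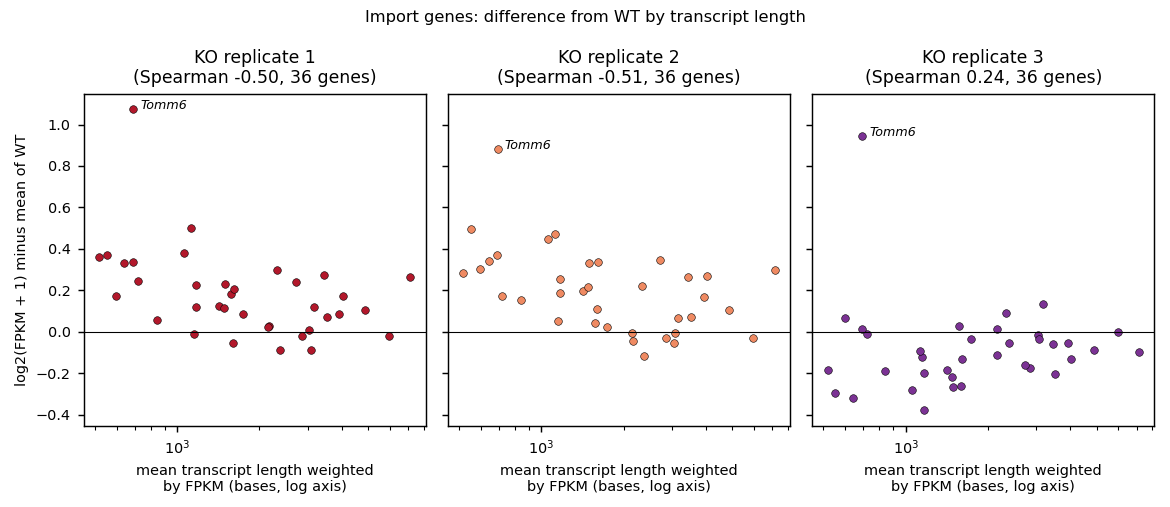
Difference of each of the 36 import genes from the WT mean, on the log2(FPKM + 1) scale, against its transcript length in bases on a log axis, in KO replicates 1, 2 and 3. Shorter genes lie higher in KO replicates 1 and 2 (Spearman -0.50 and -0.51) but not in KO replicate 3 (0.24), and Tomm6 lies far above the other genes in each panel.

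Of the 166 import transcripts, 71 passed the filter and none passed the test, against 0.0417 percent of 19184 transcripts. At an unadjusted p under 0.05 there were 3, in Tomm6, Tomm34 and Tomm40l. Tomm34 has a pair of coding transcripts with opposite differences. ENSMUST00000109384 had 9.26, 9.07 and 10.3 FPKM in KO, against 18.6, 12.2 and 12.1 FPKM in WT (log2 fold change -0.51, limma adjusted p = 0.873), and ENSMUST00000018466 had 21.2, 20.8 and 20.2 FPKM in KO, against 13.1, 17.6 and 19.8 FPKM in WT (0.31, adjusted p = 0.894). Neither overlapped between genotypes, while the gene's own values did. The Tomm40l transcript ENSMUST00000111327 had 1.14, 0.429 and 1.87 FPKM in KO, against 2.02, 3.70 and 2.44 FPKM in WT, also without overlap (limma adjusted p = 0.885). Next by p were Timm10b ENSMUST00000058333, at 10.3 to 11.2 FPKM in KO cells and 7.499 to 9.69 FPKM in WT, Romo1 ENSMUST00000109597, at 1.84 to 4.09 FPKM in KO cells and 1.47 to 1.68 FPKM in WT, and Timm17b ENSMUST00000033498, at 9.76 to 11.4 FPKM in KO cells and 8.50 to 9.37 FPKM in WT. All 3 were without overlap, with limma adjusted p of 0.886, 0.891 and 0.894. Apart from ENSMUST00000018466, these transcripts were named for their small p, which favours groups that do not overlap. The share without overlap over all transcripts was not counted, so the lack of overlap is no separate result.

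A further 2 transcripts are marked as significant in the authors' deposited table but failed the filter here. The Timm23 transcript ENSMUST00000163379, annotated as subject to nonsense-mediated decay, had 2.17, 2.08 and 0.394 FPKM in KO cells and is listed at 0 in every WT library (authors' q 5.37e-07). The Tomm40l transcript ENSMUST00000111326 had 1.99 FPKM in KO replicate 2 and is listed at 0 in the other 5 libraries (authors' q 5.96e-07). Coding transcripts held 95.9 to 96.7 percent of the summed transcript FPKM of the import genes in KO and 96.2 to 96.6 percent in WT.

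The balance within pairs of paralogs was compared as the share of 1 gene in the FPKM of the pair, taken from the gene table. Timm17a made up 54.3 ± 2.47 percent of Timm17a and Timm17b in KO and 55.3 ± 3.39 percent in WT (SD, n = 3 each). Timm8a1 made up 48.6 ± 2.08 percent of Timm8a1 and Timm8b in KO and 50.6 ± 0.953 percent in WT. Tomm40 held 81.3 ± 1.35 percent of the pair with Tomm40l in KO and 80.6 ± 0.633 percent in WT, Grpel1 held 85.7 ± 1.24 percent of the pair with Grpel2 in KO and 87.1 ± 1.02 percent in WT, and Mtx1 held 89.0 ± 3.15 percent of the pair with Mtx3 in KO and 87.5 ± 2.12 percent in WT. None of the 5 differences passed (exact two-sided permutation p between 0.2 and 0.7, all 0.7 when adjusted over the 5 pairs, in a design that cannot go below 0.1). With FPKM summed over the transcripts of each gene, an alternative chosen after the data were seen, Tomm40 held 90.5 ± 0.858 percent in KO and 89.7 ± 0.681 percent in WT, Grpel1 held 77.9 ± 1.89 percent in KO and 80.2 ± 1.44 percent in WT, and Mtx1 held 94.9 ± 1.83 percent in KO and 94.3 ± 1.27 percent in WT. The level of these 3 shares therefore depends on which table is read, while none of the 5 differences between genotypes passed with either (exact two-sided permutation p of 0.2 or more with the transcript sums).

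Promoters of 300 bases, from 250 before to 50 after the start, were matched by symbol in RefSeq (GRCm38.p6) for 34 of the 38 genes, giving 36 promoters. They were searched on both strands for the ETS motif CCGGAAG, bound by GABPA, and for the motifs of NRF1, YY1 (AAGATGGC) and E-box factors such as MYC (CACGTG), all known regulators of mitochondrial genes. The ETS motif was in 17 of the 36 (47.2 percent), against 20.6 percent of 9865 promoters of tested genes and 8.86 percent of all 32851 promoters. The sets differ, since the 36 include promoters of Timm8a2, with an ETS match, and Tomm6os, with an E-box. Neither gene was tested. NRF1 was in 5 (11.5 percent of tested-gene promoters), YY1 in 2 (5.18 percent) and the E-box in 5 (10.6 percent). Of the genes that rose without KO replicate 3, 10 have 11 promoters in RefSeq, and 4 of these 11 hold the ETS motif, those of Timm10, Romo1, Mtx1 and Timm8b. Tomm6, Tomm5, Tomm40, Timm13, Timm22 and Timm50 have no ETS match in this window. The 4 promoters with a match are shown as examples of where it lies. Capitals mark matches to any of the 4 motifs on either strand. A match in a promoter is no measurement of binding. Timm10 lies at chr2:84826771-84827070 (plus strand), Romo1 at chr2:156143983-156144282 (plus), Mtx1 at chr3:89213858-89214157 (minus) and Timm8b at chr9:50603651-50603950 (plus):
Timm10: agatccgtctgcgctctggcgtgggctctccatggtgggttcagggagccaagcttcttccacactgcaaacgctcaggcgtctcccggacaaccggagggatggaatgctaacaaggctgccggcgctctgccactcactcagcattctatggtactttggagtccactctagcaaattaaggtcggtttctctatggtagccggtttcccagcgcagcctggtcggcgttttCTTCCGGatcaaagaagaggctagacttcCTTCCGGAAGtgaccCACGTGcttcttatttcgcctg
Romo1: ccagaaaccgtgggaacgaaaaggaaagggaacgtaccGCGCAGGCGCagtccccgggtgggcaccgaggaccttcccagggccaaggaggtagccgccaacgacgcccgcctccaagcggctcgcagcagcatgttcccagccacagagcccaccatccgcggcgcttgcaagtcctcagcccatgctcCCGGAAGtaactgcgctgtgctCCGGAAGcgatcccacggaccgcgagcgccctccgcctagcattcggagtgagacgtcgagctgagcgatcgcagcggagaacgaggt
Mtx1: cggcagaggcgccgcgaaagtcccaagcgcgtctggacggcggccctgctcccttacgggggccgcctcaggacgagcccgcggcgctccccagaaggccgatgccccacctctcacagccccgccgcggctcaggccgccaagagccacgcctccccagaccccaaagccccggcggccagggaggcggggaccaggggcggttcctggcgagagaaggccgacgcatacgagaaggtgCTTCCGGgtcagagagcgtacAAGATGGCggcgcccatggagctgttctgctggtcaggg
Timm8b: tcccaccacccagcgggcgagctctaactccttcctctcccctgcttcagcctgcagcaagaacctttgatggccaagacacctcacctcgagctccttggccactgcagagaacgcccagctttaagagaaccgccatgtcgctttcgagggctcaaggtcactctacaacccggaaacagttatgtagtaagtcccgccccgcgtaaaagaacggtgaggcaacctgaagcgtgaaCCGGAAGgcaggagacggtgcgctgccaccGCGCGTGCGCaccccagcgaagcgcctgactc

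The 2 ETS matches downstream of the start of Timm10 overlap each other on opposite strands, and Romo1 holds 2 separate ones. Of the factors themselves, Gabpa, the DNA-binding subunit of GABP, had 20.2, 16.5 and 21.4 FPKM in KO, against 22.4, 20.95 and 20.5 FPKM in WT, and its groups overlapped. Myc, a growth regulator that raises mitochondrial gene expression, had 80.3, 87.0 and 110.9 FPKM in KO, against 102.0, 101.0 and 102.1 FPKM in WT. KO replicates 1 and 2 were below and KO replicate 3 above all WT libraries. Ppargc1b and Pprc1, both coactivators of mitochondrial genes, had 1.14 to 1.34 and 23.6 to 24.8 FPKM in KO, against 0.833 to 1.21 and 25.1 to 27.7 FPKM in WT. Pprc1 was lower in every KO library, as were 6.88 percent of all genes tested.

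Neighbouring parts of the pathway were read from 5 further lists with 64 genes tested, of which none passed with all 6 libraries and none had an unadjusted p under 0.05. Their median log2 fold changes were 0.05 over 21 matrix chaperones and peptidases, 0.01 over 12 insertion and outer membrane partners, 0.03 over 8 MICOS genes, -0.02 over 11 cytosolic chaperones and -0.0014 over 12 transcription factors. Without KO replicate 3, 4 of the 64 rose (6.25 percent) and 2 of the 64 fell, against 4 percent of all genes higher and 6.14 percent lower. Both counts are small, and the lists were not tested against all genes. Those that rose were Hspe1, the cochaperone of matrix Hsp60, Phb (prohibitin), the matrix protease Clpp and the MICOS subunit Micos10. The matrix protease Lonp1 and Myc fell. The limma adjusted p in that fit was 0.00779 for Hspe1, 0.0199 for Phb, 0.0301 for Clpp, 0.0164 for Micos10, 0.0377 for Lonp1 and 0.0247 for Myc. Hspe1 had 204, 196 and 125 FPKM in KO, against 144, 148 and 150 FPKM in WT, and was split like the import genes. Lonp1 had 51.4, 54.3 and 79.6 FPKM in KO, against 63.3, 60.3 and 62.8 FPKM in WT, the split turned round. Clpp had 46.0, 49.8 and 30.9 FPKM in KO, against 39.5, 38.3 and 40.2 FPKM in WT, and Phb ran between 60.9 and 89.6 FPKM in KO and between 68.3 and 73.0 FPKM in WT, both split.

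Of the other genes with the smallest p in their lists, the protease gene Yme1l1 had 25.0, 23.5 and 26.8 FPKM in KO, against 29.0, 26.9 and 28.9 FPKM in WT, with all KO values lower. The inner membrane peptidase gene Immp1l had 15.5 to 17.9 FPKM in KO cells and 11.5 to 16.7 FPKM in WT, and the motor gene Dnajc15 had 4.72 to 6.58 FPKM in KO cells and 4.27 to 5.03 FPKM in WT. Micos10 had 24.1 to 30.8 FPKM in KO cells and 23.8 to 24.6 FPKM in WT, Micos13 had 26.3 to 33.8 FPKM in KO cells and 24.2 to 27.9 FPKM in WT, and Dnajc11 had 9.14 to 11.0 FPKM in KO cells and 9.49 to 10.2 FPKM in WT. The outer membrane insertase gene Mtch1 had 11.97 to 13.3 FPKM in KO cells and 10.7 to 12.3 FPKM in WT, and the porin genes Vdac1 and Vdac3 overlapped between genotypes. The cytosolic chaperone genes Ubqln1 and Dnajb6 were lower in every KO library than in every WT library, and Ubqln2 overlapped. Ubqln1 had 47.7 to 48.3 FPKM in KO cells and 50.1 to 50.7 FPKM in WT. Dnajb6 had 20.9 to 21.7 FPKM in KO cells and 22.03 to 23.0 FPKM in WT. Of all genes tested, 6.88 percent were lower in every KO library. Naming genes for a small p favours groups that do not overlap, so the lack of overlap is no separate result.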

How the data were processed

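The authors deposited FPKM per gene and per transcript, with a column for each of the 6 libraries and columns of p-values and q-values for KO against WT, per the file headers. The tool that made those p-values is not stated in the sources used. Tools listed in the submitters' processing notes, with no role, are HISAT2, StringTie, cutadapt, FastQC, edgeR and DESeq2, and the build listed is mm9. Coordinates are given as GRCm38, because 165 of the 166 import transcripts had the same ones in GENCODE M21. The table has no counts, so depth is unknown and no count test was run.

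Features at 1 FPKM or more in at least 3 libraries were compared in limma 3.58.1 (R 4.3.3) as log2(FPKM + 1), using a variance trend and Benjamini-Hochberg adjustment over all of them, at a threshold of 0.05. The fits were tested on simulated data drawn independently for each gene and library. Those data hold no shift of a whole library and no length trend, so that test cannot speak to the calls without KO replicate 3. Transcript lengths per gene were weighted by FPKM. The length trend was removed on another length, that of all annotated exons of a gene together. Single values had an exact two-sided permutation test (scipy 1.17.1).

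The import genes, the 5 related lists and the marker lists were chosen with earlier results of these data known. Values in every library are given for import genes that passed, for the 10 of smallest p and for the defining subunits. Of the transcripts, the 6 of smallest p are named, and of each related list the genes that passed and the 3 of smallest p. Tomm5, Timm13, Gm21981, Hspe1, Lonp1, Clpp, Phb, Myc and the untested transcripts were named after their values were seen.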

Additional observations from a re-analysis of the deposited data

How the results depend on the processing

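Leaving out 1 library at a time gave between 0 and 11 import genes that passed, between 0 and 1088 of all genes and between 0 and 6 genes of the related lists; the high end in each is the fit without KO replicate 3, and the cause was not tested. Scaling to a common median and the replicate block each gave 1 import gene, Tomm6 (adjusted p 0.0429 and 0.0305), and the length trend removed together with KO replicate 3 gave 12 of the import genes and 810 of all genes. Replicate numbers did not pair the libraries: deviations of same-numbered libraries correlated at 0.00668, -0.0170 and -0.0756, and no library correlated best with its own number. Of all genes, 13 passed with the replicate block, 7 at an adjusted p under 0.01 and 5 with a filter at 5 FPKM. The import transcripts stayed at 0 in all 13 alternatives, and the median log2 fold change of the import genes stayed positive, between 0.02 and 0.16, in all 12. Tomm6 pooled with Gm21981, chosen after the data were seen, had a log2 ratio of 0.26.

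Sirt2 kept its direction in all 14 alternatives and missed the threshold in 11. Its log2 fold change was -0.72 with median scaling and with the length trend removed (adjusted p 0.0766 and 0.0651), and -0.76 with no filter, a filter at 5 FPKM, no variance trend, the replicate block (adjusted p 0.135) and a threshold of 0.01. Leaving out each library gave between -0.85 and -0.71, with adjusted p up to 0.376.

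Small differences changed sign. Median scaling gave a log2 fold change of 0.023 for Tomm70a, 0.017 for Timm23, 0.022 for Hspa9 and 0.019 for Grpel1, and removal of the length trend gave 0.066 for Tomm70a and 0.0082 for Hspa9. Leaving out each library in turn gave a range of -0.050 to 0.17 for Tomm22, -0.055 to 0.0073 for Tomm70a, -0.13 to 0.15 for Timm23, -0.017 to 0.28 for Timm50, -0.065 to 0.10 for Timm9, -0.068 to 0.071 for Grpel1, -0.16 to 0.027 for Gfer and -0.012 to 0.085 for Pmpcb. Shares of a paralog pair differed between KO and WT by -2.25 to 0.950 percentage points for Timm17a and by -0.297 to 2.76 for Mtx1.

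The number of libraries, 3 against 3, and the unknown read depth limit these comparisons. FPKM is relative to the total of each library, and short, overlapping genes such as Tomm6 depend on how reads were divided among transcripts.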
